A study of Homo sapiens with 12 samples.

Results

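The comparison described here is that of differentiated Caco-2 cells given 25 µg/mL of surfactant-coated silver nanoparticles (AgPURE) with cells kept in medium alone. It rests on 3 arrays of each kind, 6 of the 12 arrays in the series, and covers 19775 genes. The arrays were chosen by their labels, and each gene was read from 1 probe set, the one with exactly 1 gene symbol and the highest mean over the 12 arrays. Caco-2, an established cell line from a human colon carcinoma, acquires enterocyte features in confluent culture. All cells were at passage 22 and 21 days past confluence, were grown with 10% serum in 75 cm2 flasks, and were exposed for 24 h in 20 mL of medium holding 1% of an insulin, transferrin and selenium supplement in place of serum. The remaining arrays, used below only to place the high dose, came from cells given 2.5 µg/mL of the same particles or 0.5 µg/mL of silver ions as AgNO3, 3 arrays each. The study asked how silver nanoparticles act on this intestinal line. No group received the surfactant alone, so silver and surfactant cannot be told apart. Whether the arrays of each group stand for separate cultures is not stated in the labels, so the p-values reflect a spread between arrays that may be technical.

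Absorptive enterocytes take up nutrients through solute carriers at their brush border, process them with a dense set of lipid, sugar, amino acid and detoxifying enzymes, and pass them to the blood through carriers and ATP-binding cassette pumps of the basolateral side. Nuclear receptors and lineage transcription factors hold that program in place. Silver ions bind thiols and can displace zinc from metallothionein, and excess zinc is sensed by the transcription factor MTF1, which binds metal response elements in the promoters of metallothionein and zinc carrier genes.

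Values are the deposited log2 expression values, so a difference of 1 is a doubling. A gene was called when its adjusted p from limma was under 0.05. On this rule 6607 genes (33.4% of those tested) were called, 2796 higher (14.1%) and 3811 lower (19.3%) at 25 µg/mL, and 244 (1.23%) were called with at least a 2-fold rise and 447 (2.26%) with at least a 2-fold fall. The 3 nanoparticle arrays lay above all 3 medium arrays for 19.8% of genes and below them for 25.9%. In 5 equal bins of genes by mean level, the share called rose from 3.8% higher and 1.9% lower in the dimmest bin to 23.8% higher and 31.9% lower in the brightest, so a list of bright genes holds more calls than a list of dim ones. Directions are relative to the authors' normalization, which set every array to the same mean. At 25 µg/mL the 24 poly-A controls averaged 0.61 above medium and the 18 hybridization controls 0.43. Scaling on them moved the median of all genes from -0.01 to -0.62 and -0.44 and left 1.3% and 3.8% of the calls on the higher side, against 42.3% as deposited. Median centring of the arrays moved it to 0.10 and put 60.1% of the calls on the higher side. The poly-A means were 6.21, 5.56 and 6.31 on the nanoparticle arrays and 5.31, 5.54 and 5.39 on the medium arrays, so that scaling rests mainly on 2 of the 3 nanoparticle arrays.

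Of 18 enterocyte markers measured, 8 lay in the top 25% of all genes in medium and 7 below the median. CDH17, an intestinal cadherin, averaged 10.57 and VIL1, villin of the microvilli, 10.38, whereas SI, the sucrase-isomaltase of the brush border, averaged 3.56 and ANPEP, an aminopeptidase of the same membrane, 4.13. Levels of different probe sets are not comparable with each other, and no detection calls were used, so a low value does not show that a marker is missing. At 25 µg/mL 8 of the 18 fell and 1 rose (44.4% and 5.6%, against 19.3% and 14.1% of all genes). Of the 13 with a mean of 5 or more 61.5% fell, against 29.7% of all genes of that level. ALPI, intestinal alkaline phosphatase, fell (log2 difference -1.38, SE 0.14, adjusted p = 3.58e-06, and -0.80 as the mean of its 2 probe sets). VIL1 fell by less (log2 difference -0.50, SE 0.09, adjusted p = 0.00073), and CDH17 did not pass the test (log2 difference 0.05, SE 0.10, adjusted p = 0.756). The mean level of the 18 markers was 8.15, 8.26 and 8.21 on the medium arrays and 7.90 on each of the 3 nanoparticle arrays. Markers of goblet, enteroendocrine, Paneth and stem, fibroblast, and leukocyte and endothelial cells had 1, 0, 1, 2 and 0 members in the top 25% in medium, of 8, 7, 8, 8 and 6 measured. In these lists 0, 0, 0, 2 and 1 members rose and 1, 0, 1, 2 and 0 fell. The mean level of the 8 fibroblast markers was 5.90, 5.93 and 5.85 in medium and 5.71, 5.75 and 5.67 with nanoparticles, and the part of other cell types in the results was not tested.

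The 4 functional classes read for changes beyond the stress genes covered 4068 genes. Of 758 transporter, pump and channel genes, 99 were higher and 164 lower (13.1% and 21.6%). Of 899 receptor and ligand genes, 91 were higher and 128 lower (10.1% and 14.2%). Transcription factors and chromatin genes had more members higher than lower, 257 and 224 of 1334 (19.3% and 16.8%). Metabolic enzymes had 114 higher and 373 lower of 1086 (10.5% and 34.3%), with a median difference of -0.11 against -0.01 over all genes. Among the 11733 genes with a mean of 5 or more, 20.3% were higher and 29.7% lower, and the classes stood at 20.2% and 36.5% for transporters, 15.3% and 29.5% for receptors, 25.4% and 23.4% for transcription factors, and 13.2% and 45.2% for metabolic enzymes. The plot of list shares gives the same count for each functional list with 15 or more measured members. Each list count below stands against 14.1% higher and 19.3% lower over all genes. A share near these says little about its list.

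**Figure D1:**
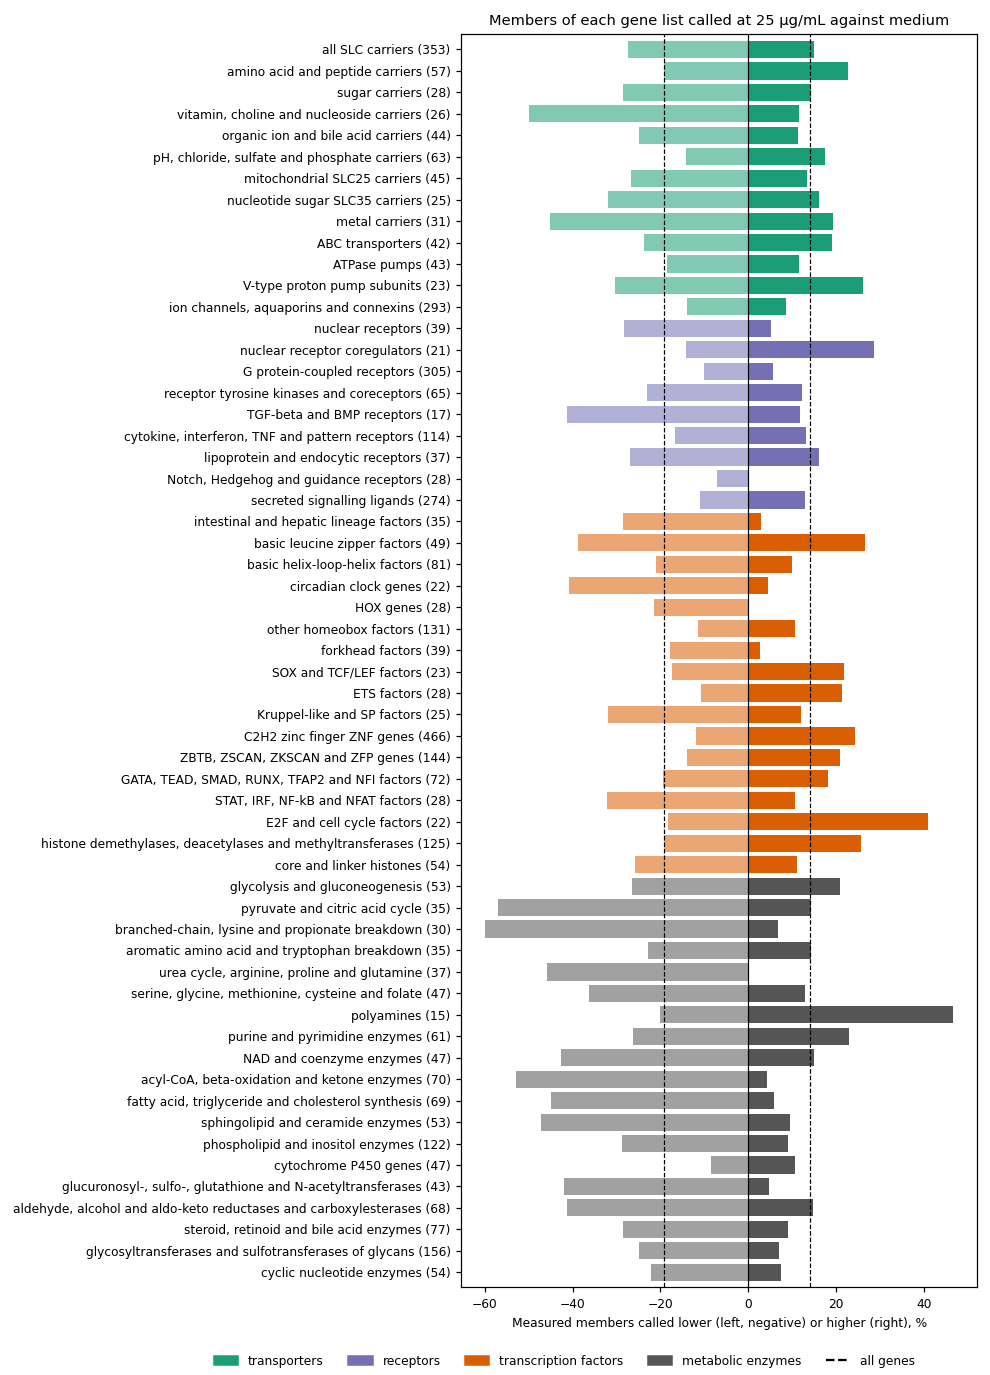
Percent of measured members called higher (bars to the right) and lower (bars to the left, paler) at 25 µg/mL against medium for each functional list with 15 or more measured members, number measured in brackets, coloured by class; dashed lines mark all genes, 14.1% higher and 19.3% lower. The longest bars to the left belong to breakdown of branched-chain amino acids (60% lower) and to the pyruvate and citric acid cycle list (57.1%), and these shares hold for the authors' normalization.

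A zinc carrier gave the largest rise of any solute carrier. SLC30A2, a carrier that loads zinc into vesicles, lay at 6.65, 6.54 and 6.31 on the medium arrays and at 8.64, 8.61 and 8.42 on the nanoparticle arrays (log2 difference 2.05, SE 0.13, adjusted p = 4.62e-08, 4.15-fold, and 1.34 as the mean of its 2 probe sets). The rule that picked SLC30A2 required groups that do not overlap. SLC30A1, the zinc exporter of the plasma membrane, rose from a higher level (log2 difference 0.67, SE 0.13, adjusted p = 0.00122), and ATP7A, a copper-exporting pump, rose from a low one (log2 difference 0.67, SE 0.13, adjusted p = 0.00125); both calls were lost under poly-A and under hybridization scaling. SLC39A10 and SLC39A11, of the family that brings zinc into the cytosol, fell, the first by 0.80 and the other by 1.05 on the log2 scale. SLC40A1, ferroportin, the iron exporter of the basolateral membrane, was at 11.86, 11.89 and 12.002 in medium and 11.001, 11.03 and 10.81 with nanoparticles (log2 difference -0.97, SE 0.09, adjusted p = 2.12e-06). TFRC, the transferrin receptor, did not pass the test (log2 difference -0.07, SE 0.08, adjusted p = 0.597). In all, 6 of 31 metal carriers rose and 14 fell, with a median of -0.23.

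The promoter of SLC30A2 is shown because this gene led the rises among carriers. In the 250 bases before its start TGCNCNC, a loose pattern for the metal response element core, stood 3 times over both strands. The sequence is RefSeq's, from build GRCh38.p14, minus strand, chr1:26046119-26046368, and capitals mark the matches.
SLC30A2: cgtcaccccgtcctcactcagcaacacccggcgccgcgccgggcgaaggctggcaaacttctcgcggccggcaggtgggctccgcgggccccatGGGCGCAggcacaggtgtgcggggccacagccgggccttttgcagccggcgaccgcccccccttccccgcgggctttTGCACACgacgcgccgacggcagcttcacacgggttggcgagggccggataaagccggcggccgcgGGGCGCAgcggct
The matches began 156, 79 and 13 bases before the start. At least 1 such match was found in 53.7% of the 15384 promoters of the same length with a measured gene, and at least 3 in 6.57%. Among genes that rose at least 2-fold the share with 1 or more was 49.5% of 184 promoters, and among genes that fell at least 2-fold it was 51.2% of 365. Both shares were close to that of all promoters. A pattern this common says little about metal response elements in either group. MTF1 itself was 0.39 higher as deposited (log2 difference 0.39, SE 0.11, adjusted p = 0.0151), and -0.23 under poly-A scaling and -0.04 under hybridization scaling, and its call was lost without medium replicate 1 or nanoparticle replicate 2.

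Carriers of amino acids moved in both directions, with 13 higher and 11 lower of 57 (22.8% and 19.3%). The share lower was that of all genes, 19.3%, and the share higher stood against 14.1%. SLC7A5, the exchanger of large neutral amino acids, rose from 9.96, 10.02 and 9.82 to 11.43, 11.40 and 11.51 (log2 difference 1.51, SE 0.09, adjusted p = 3.67e-08). Its partner chain SLC3A2 did not pass the test (log2 difference 0.04, SE 0.15, adjusted p = 0.883). SLC7A11, which exchanges cystine for glutamate, rose by 1.54 and SLC1A4, a carrier of alanine, serine and cysteine, by 1.23. On the falling side stood SLC38A4, a sodium-coupled carrier of neutral amino acids, at 6.65, 7.21 and 7.31 in medium and 4.12, 4.49 and 4.74 with nanoparticles (log2 difference -2.60, SE 0.22, adjusted p = 6.73e-07, 6.08-fold lower, and -1.59 as the mean of its 2 probe sets). All 3 nanoparticle values of SLC38A4 were close to or below the median of the arrays, about 4.75. SLC15A2, a proton-coupled peptide carrier, fell (log2 difference -1.27, SE 0.20, adjusted p = 0.000144, and -0.58 as the mean of its 3 probe sets), and so did SLC3A1, the heavy chain of the cystine and dibasic amino acid carrier of the brush border (log2 difference -0.93, SE 0.12, adjusted p = 3.8e-05, and -0.33 as the mean of its 3 probe sets).

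Carriers of bile acids, organic anions, vitamins and sugars mostly fell where they changed. SLC10A1, the sodium-dependent bile acid carrier known from the liver, went from 7.39, 7.53 and 7.66 to 5.39, 5.13 and 5.30 (log2 difference -2.26, SE 0.18, adjusted p = 3.9e-07, 4.78-fold lower). SLCO2B1, an uptake carrier of organic anions and drugs, went from 9.73, 9.80 and 9.81 to 8.31, 8.40 and 8.38 (log2 difference -1.41, SE 0.08, adjusted p = 9.91e-09). The arrays of SLCO2B1 lay close together within each group, and the rule that picked it required groups that do not overlap. Of 44 organic ion and bile acid carriers, 5 rose and 11 fell (11.4% and 25.0%, against 14.1% and 19.3% of all genes). SLC23A1, the sodium-dependent carrier of ascorbate, lay at 7.76, 8.29 and 8.63 in medium and at 6.06, 5.76 and 6.10 with nanoparticles (log2 difference -2.25, SE 0.17, adjusted p = 2.9e-07). It led a list of 26 vitamin, choline and nucleoside carriers in which 13 fell and 3 rose, with a median of -0.28. SLC46A3, a carrier of the lysosomal membrane, fell by 1.12 and SLC44A5, of the choline carrier family, by 1.16 (-0.55 as the mean of its 4 probe sets).

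Among 28 sugar carriers 4 rose and 8 fell (14.3% and 28.6%, against 14.1% and 19.3% of all genes). SLC2A2, the glucose carrier of the basolateral membrane, was dim in medium at 4.73, 5.60 and 5.43 and dimmer with nanoparticles at 3.99, 3.80 and 4.10 (log2 difference -1.29, SE 0.22, adjusted p = 0.000333). SLC50A1, a sugar exporter, fell from 9.44, 9.35 and 9.51 to 8.29, 8.39 and 8.56 (log2 difference -1.02, SE 0.09, adjusted p = 8.32e-07), and SLC5A9, a sodium-coupled sugar carrier, fell by 1.31 (-0.74 as the mean of its 2 probe sets). SLC2A1, the widespread basal glucose carrier, was higher in the deposited values (log2 difference 0.52, SE 0.14, adjusted p = 0.00798) but -0.09 under poly-A scaling, and the call was lost under hybridization scaling. SLC5A1, the sodium-glucose carrier of the brush border, was near the floor of the arrays and did not pass the test (log2 difference -0.06, SE 0.08, adjusted p = 0.673). The carriers for sulfate and magnesium were also lower: SLC26A2, for sulfate, fell by 0.89 from a mean of 11.12, and SLC41A2, for magnesium, by 1.42 (-0.89 as the mean of its 3 probe sets). The wider list of 63 carriers of protons, anions, phosphate and related ions had 11 higher and 9 lower. SLC9A3, the sodium-proton exchanger of the brush border, did not pass (log2 difference -0.11, SE 0.08, adjusted p = 0.351).

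Carriers of the mitochondrial inner membrane had 6 members higher and 12 lower of 45 (13.3% and 26.7%). Among those with a mean of 5 or more the shares were 16.7% and 33.3%. All genes of that level stood at 20.3% and 29.7%, so these shares were near background. SLC25A40, a glutathione importer of mitochondria, lay at 8.50, 8.73 and 8.46 and then at 7.52, 7.52 and 7.53 (log2 difference -1.03, SE 0.11, adjusted p = 7.48e-06). SLC25A1, the citrate carrier, fell by 0.76. SLC25A32, a carrier of flavin and folate, rose (log2 difference 0.70, SE 0.09, adjusted p = 2.09e-05), a call that was lost under poly-A and hybridization scaling. Of the 25 nucleotide sugar carriers of the SLC35 family, 4 rose and 8 fell (16.0% and 32.0%).

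The ATP-binding cassette pumps split, with 8 higher and 10 lower of 42. ABCA1, which loads cholesterol onto apolipoprotein A-I, fell from 7.97, 8.02 and 8.09 to 6.45, 6.62 and 6.06 (log2 difference -1.65, SE 0.12, adjusted p = 1.77e-07, and -0.79 as the mean of its 4 probe sets). ABCB1, the multidrug pump P-glycoprotein, fell from 8.97, 9.47 and 9.54 to 8.40, 8.59 and 8.56 (log2 difference -0.81, SE 0.15, adjusted p = 0.000693). ABCG2, another drug pump of the brush border, moved the other way. It went from 7.62, 7.58 and 7.37 to 8.38, 8.26 and 8.15 (log2 difference 0.74, SE 0.13, adjusted p = 0.000353), a call lost under poly-A and hybridization scaling. Neither ABCB1 nor ABCG2 had overlapping groups, as was so for 19.8% (above) and 25.9% (below) of all genes. ABCG2 was among the genes picked for not overlapping. ABCC9, a regulatory subunit of ATP-sensitive potassium channels, fell by 1.44, with 1 of its 5 probe sets on the other side (-0.60 as the mean of its 5 probe sets).

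MCOLN1, a cation channel of the lysosomal membrane, rose from 5.50, 5.85 and 5.71 to 6.70, 7.03 and 6.72 (log2 difference 1.13, SE 0.14, adjusted p = 2.68e-05). ATP6V1C1, a subunit of the vacuolar proton pump that acidifies lysosomes, rose from 9.32, 9.33 and 9.23 to 10.46, 10.46 and 10.25 (log2 difference 1.10, SE 0.09, adjusted p = 3.4e-07), and the subunits ATP6V0B and ATP6V1D rose by 0.63 and 0.68; under poly-A scaling these 3 calls were lost, the last 2 also under hybridization scaling. A subunit of restricted expression, ATP6V1G3, fell from 6.72, 7.08 and 6.67 to 4.94, 4.85 and 5.49 (log2 difference -1.73, SE 0.19, adjusted p = 7.35e-06). Over the 23 pump subunits 6 rose and 7 fell, so the complex as a whole did not move one way. SCARB2, the lysosomal receptor for glucocerebrosidase, fell by 0.93 (-0.75 as the mean of its 4 probe sets).

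The MCOLN1 promoter is shown for the motif CACGTG, the E-box within the element bound by lysosomal regulators of the MiT/TFE family. It reads the same on both strands and stood here 2 times. The sequence is RefSeq's, GRCh38.p14, plus strand, chr19:7522374-7522623, with the matches in capitals.
MCOLN1: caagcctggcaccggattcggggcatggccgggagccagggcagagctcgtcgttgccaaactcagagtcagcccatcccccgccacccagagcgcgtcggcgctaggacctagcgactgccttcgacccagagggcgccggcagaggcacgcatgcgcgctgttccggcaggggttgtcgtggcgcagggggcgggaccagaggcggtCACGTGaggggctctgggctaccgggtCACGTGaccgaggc
The matches began 41 and 14 bases before the start. Of all 15384 promoters 7.8% held CACGTG and 0.72% held it at least 2 times. The share was 13.6% among the genes with at least a 2-fold rise and 4.7% among those with at least a 2-fold fall. These shares are given as a description, and no factor's binding was measured.

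Of 293 ion channel, aquaporin and connexin genes 25 rose and 41 fell. AQP3, the water and glycerol channel of the basolateral membrane, went from 9.50, 9.67 and 9.76 to 7.77, 7.78 and 7.83 (log2 difference -1.85, SE 0.12, adjusted p = 5.19e-08, 3.62-fold lower, and -1.13 as the mean of its 3 probe sets). KCNJ16, an inward rectifier potassium channel, dropped from 6.04, 6.31 and 6.45 to 4.01, 4.26 and 4.35 (log2 difference -2.06, SE 0.14, adjusted p = 9.56e-08, and -1.21 as the mean of its 2 probe sets), below the array median. GABRA4, a subunit of the GABA-A receptor, fell by 2.01 (-1.21 as the mean of its 2 probe sets). CFTR, the chloride channel of the apical membrane, was measured at 8.36, 8.65 and 8.61 and 8.45, 8.65 and 8.51 and did not pass (log2 difference 0.00, SE 0.10, adjusted p = 0.995). FXYD3, a small regulator of the sodium pump, fell from 8.60, 8.90 and 8.62 to 7.24, 7.39 and 7.42 (log2 difference -1.35, SE 0.13, adjusted p = 1.57e-06), among 43 P-type pump genes and subunits of which 5 rose and 8 fell.

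**Figure D2:**
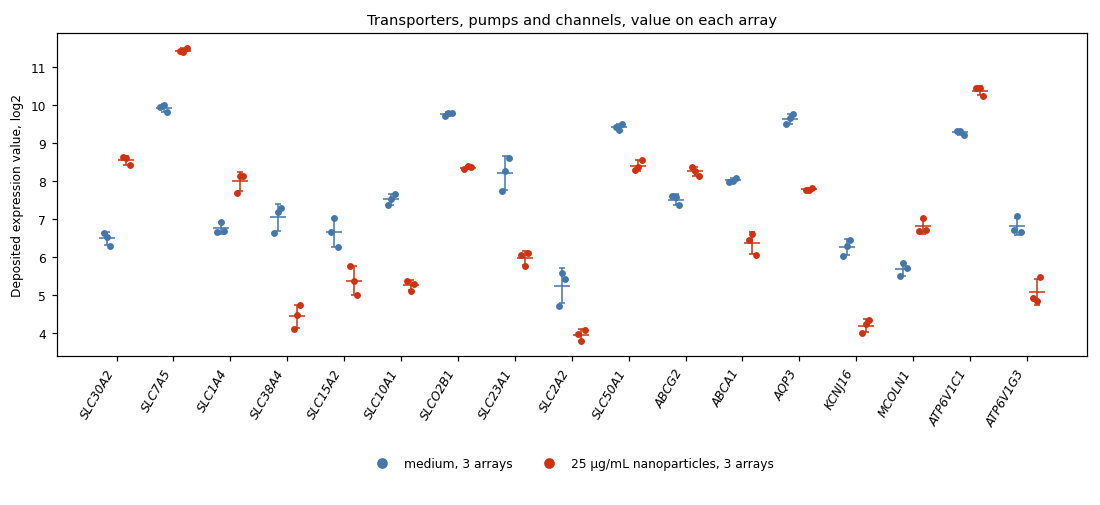
Deposited log2 value of 17 transporter, pump and channel genes on each of the 3 medium arrays (blue) and the 3 arrays at 25 µg/mL (red); horizontal ticks and bars are the mean and the SD of 3 arrays. Genes picked by the rule had to have groups that do not overlap, as 19.8% (above) and 25.9% (below) of all genes do; SLC30A2 rises by 2.05 and SLC38A4 falls by 2.60.

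Nuclear receptors that changed were mostly lower, 11 of 39 against 2 higher. RORA, a receptor that drives clock and lipid genes, went from 8.56, 8.90 and 8.75 to 6.92, 7.18 and 7.20 (log2 difference -1.63, SE 0.11, adjusted p = 8.43e-08), although 2 of its 8 probe sets pointed up (-1.04 as the mean of its 8 probe sets). NR3C1, the glucocorticoid receptor, fell from 8.68, 8.75 and 8.47 to 7.59, 7.85 and 7.94 (log2 difference -0.84, SE 0.11, adjusted p = 2.27e-05), and all of its 5 probe sets were lower. PPARA, the receptor that drives fatty acid oxidation genes, fell from 6.99, 7.18 and 6.996 to 6.36, 6.37 and 5.94 (log2 difference -0.83, SE 0.13, adjusted p = 0.000136), and all of its 9 probe sets were lower. VDR, the vitamin D receptor, fell by 0.55 (-0.23 as the mean of its 4 probe sets). NR4A1, an early-response receptor, rose from 6.65, 6.67 and 6.77 to 8.88, 9.01 and 8.81 (log2 difference 2.20, SE 0.12, adjusted p = 8.85e-09), with 1 of its 3 probe sets at -0.03 (1.12 as the mean of its 3 probe sets). PPARG did not pass the test (log2 difference -0.19, SE 0.19, adjusted p = 0.509). Coregulators had 6 higher and 3 lower of 21. NCOA5 rose by 1.198 (0.74 as the mean of its 2 probe sets) and NCOA1, a coactivator of many nuclear receptors, fell by 0.83.

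Growth factor receptors and coreceptors had 8 members higher and 15 lower of 65. EPHA2, a receptor for ephrin-A ligands, rose from 6.84, 6.98 and 6.84 to 8.48, 8.70 and 8.78 (log2 difference 1.77, SE 0.15, adjusted p = 5.45e-07). EFNA1, one of its ligands, fell in turn, from 9.80, 9.82 and 9.93 to 8.57, 8.47 and 8.59 (log2 difference -1.30, SE 0.09, adjusted p = 1.1e-07). KLB, the coreceptor through which the gut hormone FGF19 and the liver hormone FGF21 signal, fell from 7.65, 7.94 and 8.08 to 5.27, 5.12 and 5.04 (log2 difference -2.75, SE 0.18, adjusted p = 4.95e-08, 6.72-fold lower). All values of KLB at 25 µg/mL lay at least 2 log2 units below the lowest medium value. KLB was picked among the 10 largest falls over all genes, without overlap, so this gap is a description. NRP2, a semaphorin and VEGF coreceptor, fell by 1.58, with 1 of 11 probe sets on the other side (-0.42 as the mean of its 11 probe sets). Of 17 TGF-beta and BMP receptors 2 rose and 7 fell, among them BAMBI, a decoy receptor that dampens TGF-beta signals, which went from 11.96, 12.08 and 11.91 to 10.97, 11.27 and 11.31 (log2 difference -0.80, SE 0.11, adjusted p = 3.9e-05).

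Of 305 G protein-coupled receptors 17 were higher and 31 lower (5.6% and 10.2%), and only 89 of the 305 had a mean of 5 or more. SSTR1, a somatostatin receptor, lay at 7.30, 7.57 and 7.66 in medium and at 5.85, 5.89 and 5.86 with nanoparticles (log2 difference -1.64, SE 0.13, adjusted p = 5.26e-07, and -0.84 as the mean of its 2 probe sets). GPR160, a bright orphan receptor, fell from 10.59, 10.51 and 10.45 to 9.17, 9.27 and 9.31 (log2 difference -1.26, SE 0.08, adjusted p = 4.71e-08), and the chemokine receptor CCR10 from 6.42, 6.65 and 6.67 to 5.24, 5.10 and 5.42 (log2 difference -1.33, SE 0.12, adjusted p = 1.23e-06). The cholecystokinin receptor CCKAR rose from 5.47, 5.48 and 5.39 to 6.04, 6.37 and 6.56 (log2 difference 0.87, SE 0.11, adjusted p = 2.67e-05, and 0.44 as the mean of its 2 probe sets), a call lost under poly-A scaling. Its ligand CCK, the gut hormone that empties the gall bladder, rose from 5.11, 5.06 and 4.85 to 7.51, 7.72 and 7.95 (log2 difference 2.72, SE 0.14, adjusted p = 6.36e-09, 6.59-fold). In the same direction as SSTR1 went GUCA2A, guanylin, a gut peptide that activates guanylyl cyclase, from 6.04, 6.41 and 6.40 to 4.58, 4.85 and 4.65 (log2 difference -1.59, SE 0.18, adjusted p = 1.21e-05).

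Cytokine, interferon, TNF and pattern receptors had 15 members higher and 19 lower of 114. These shares, 13.2% and 16.7%, were near the 14.1% and 19.3% of all genes. TNFRSF10D, a decoy receptor for the death ligand TRAIL, rose from 7.34, 7.40 and 7.23 to 9.05, 9.04 and 9.08 (log2 difference 1.74, SE 0.10, adjusted p = 2.03e-08), and both of its probe sets were higher. IL1RAP, the shared chain of interleukin-1 family receptors, fell from 6.76, 7.003 and 6.87 to 5.29, 5.27 and 5.52 (log2 difference -1.52, SE 0.16, adjusted p = 6.17e-06, and -1.0 as the mean of its 2 probe sets). TLR5, the flagellin receptor, fell by 0.85 from a dim level. IFIH1, the cytosolic sensor of double-stranded RNA, fell from 6.27, 6.36 and 6.04 to 4.79, 4.58 and 4.53 (log2 difference -1.59, SE 0.11, adjusted p = 1.31e-07), with 1 of its 3 probe sets at 0.04 (-0.53 as the mean of its 3 probe sets). Lipoprotein and endocytic receptors had 6 higher and 10 lower of 37; both chains of the asialoglycoprotein receptor, which clears desialylated glycoproteins, were lower, ASGR1 by 0.88 and ASGR2 by 1.02. Notch, Hedgehog and guidance receptors had none higher and 2 lower of 28.

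Secreted ligands had 35 higher and 30 lower of 274 (12.8% and 10.9%), and many of them were dim. Among the 103 with a mean of 5 or more, 20.4% were higher and 25.2% lower. All genes of that level stood at 20.3% and 29.7%. Besides CCK, CXCL8, the neutrophil chemokine interleukin-8, rose from 4.39, 4.14 and 4.37 to 7.16, 7.002 and 6.91 (log2 difference 2.73, SE 0.15, adjusted p = 1.18e-08, and 1.90 as the mean of its 2 probe sets). APELA, a peptide ligand of the apelin receptor, fell from 9.22, 9.55 and 9.30 to 6.03, 6.88 and 6.76 (log2 difference -2.80, SE 0.19, adjusted p = 8.19e-08). STC1, stanniocalcin, fell by 1.28 (-0.82 as the mean of its 3 probe sets).

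Of 28 STAT, IRF, NF-kB and NFAT factors 9 fell and 3 rose, with a median of 0.02. IRF9, the DNA-binding part of the complex that carries type I interferon signals, lay at 8.74, 8.55 and 8.47 in medium and at 7.34, 7.57 and 7.34 with nanoparticles (log2 difference -1.17, SE 0.12, adjusted p = 3.43e-06). IRF7 fell by 0.75 and IRF2 by 0.91. The IFIH1 promoter is shown because it holds the repeat of the interferon response element (TTTC, any 2 bases, TTTC), 3 times over both strands, with 2 of the matches overlapping. The sequence is RefSeq's, GRCh38.p14, minus strand, chr2:162318685-162318934, with the matches in capitals.
IFIH1: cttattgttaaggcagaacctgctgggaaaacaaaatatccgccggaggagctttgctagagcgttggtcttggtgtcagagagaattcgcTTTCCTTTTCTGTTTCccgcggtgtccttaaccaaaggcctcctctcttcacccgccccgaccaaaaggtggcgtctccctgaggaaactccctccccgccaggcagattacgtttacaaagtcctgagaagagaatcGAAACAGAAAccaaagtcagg
The matches began 159, 153 and 21 bases before the start. The motif stood in 2.5% of all 15384 promoters, in 5.5% of those of genes that fell at least 2-fold and in 3.3% of those of genes that rose at least 2-fold. This promoter was chosen for its matches, so they are a description. Whether the lower interferon factors bear on IFIH1 was not tested.

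ETV5, an ETS factor induced by ERK signalling, rose from 6.56, 6.45 and 6.35 to 8.12, 8.47 and 8.36 (log2 difference 1.86, SE 0.14, adjusted p = 3.12e-07), and all of its 5 probe sets were higher. ETS1 rose by 1.85 from near the floor, with array values of 5.21, 6.27 and 6.21 that spread more than most. The lowest of its 3 probe sets was at -0.06 (0.89 as the mean of its 3 probe sets). EGR3, an early growth response factor, rose from 4.09, 4.41 and 4.08 to 6.27, 6.19 and 6.14 (log2 difference 2.01, SE 0.17, adjusted p = 5.65e-07). MAFF, a small MAF protein that pairs with NRF2, rose from 9.32, 8.999 and 9.44 to 11.41, 11.37 and 11.29 (log2 difference 2.10, SE 0.18, adjusted p = 9.75e-07). ETS factors as a list had 6 higher and 3 lower of 28, and bZIP factors 13 higher and 19 lower of 49.

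Some developmental factors that were dim in medium rose. SOX8, an HMG-box factor of neural crest and testis, rose from 4.85, 5.11 and 4.91 to 7.34, 7.55 and 7.60 (log2 difference 2.54, SE 0.12, adjusted p = 5.58e-09, 5.83-fold). EN2, a homeobox factor of the midbrain, rose from 4.59, 4.29 and 4.39 to 6.47, 6.30 and 6.49 (log2 difference 2.00, SE 0.12, adjusted p = 3.15e-08), and DLX2, a homeobox factor of the forebrain, from 4.72, 4.76 and 4.30 to 6.21, 5.90 and 5.40 (log2 difference 1.24, SE 0.18, adjusted p = 7e-05, and 0.62 as the mean of its 2 probe sets). Medium values of EN2 and of DLX2 lay close to or below the array median of about 4.75, so their folds are less certain than those of brighter genes. Over the 131 homeobox factors outside the HOX clusters 14 rose and 15 fell. None of the 28 HOX genes rose and 6 fell, led by HOXC5 at -0.62. TSHZ1, an atypical zinc finger homeobox factor, fell from 5.83, 6.12 and 6.08 to 4.55, 4.61 and 4.29 (log2 difference -1.53, SE 0.12, adjusted p = 3.08e-07).

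Of 22 clock and clock-output genes 9 were lower and 1 higher. HLF, a PAR bZIP factor of clock output in liver and gut, fell from 6.89, 7.22 and 7.26 to 5.23, 5.42 and 5.02 (log2 difference -1.90, SE 0.13, adjusted p = 1.12e-07), and all of its 3 probe sets were lower. NFIL3, the repressor that competes with it for the same sites, fell from 9.97, 9.94 and 9.92 to 9.01, 8.94 and 8.81 (log2 difference -1.02, SE 0.14, adjusted p = 4.04e-05). DBP, from the same family as HLF, fell by 1.02, with 1 of its 2 probe sets at 0.06 (-0.48 as the mean of its 2 probe sets). The exception was PER2, a core clock repressor, which rose from 6.46, 6.48 and 6.10 to 7.69, 7.60 and 7.71 (log2 difference 1.32, SE 0.13, adjusted p = 3.22e-06, and 0.71 as the mean of its 2 probe sets).

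Lineage factors of gut and liver had 10 of 35 lower and 1 higher. CEBPA, which drives hepatic and enterocyte metabolism genes, fell from 9.27, 9.21 and 9.33 to 8.53, 8.15 and 8.47 (log2 difference -0.89, SE 0.11, adjusted p = 1.68e-05). ELF3, an epithelial ETS factor, fell by 0.80 on its brightest probe set, with 1 of 3 on the other side (-0.27 as the mean of its 3 probe sets). CDX2, the intestinal homeobox factor, passed the test by a small margin (log2 difference -0.44, SE 0.13, adjusted p = 0.0157). Its call was lost when medium replicate 2 or nanoparticle replicate 1 or 2 was left out. The call was also lost with the mean of its 2 probe sets (-0.20), of which 1 was at 0.03. GATA4 and KLF5 did not pass (log2 difference -0.14, SE 0.10, adjusted p = 0.316 and log2 difference -0.07, SE 0.10, adjusted p = 0.681). TFEC, a member of the MiT/TFE family, fell from 7.83, 7.97 and 8.04 to 5.86, 6.02 and 5.57 (log2 difference -2.13, SE 0.11, adjusted p = 7.48e-09), and all of its 3 probe sets were lower. ARNT, the partner of the dioxin receptor and of HIF1A, fell by 1.46, with 2 of its 7 probe sets on the other side (-0.33 as the mean of its 7 probe sets). Among 81 bHLH factors 8 rose and 17 fell.

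The list of GATA, TEAD, SMAD, RUNX, TFAP2 and NFI factors had 13 higher and 14 lower of 72. These shares were 18.1% and 19.4%, against 14.1% and 19.3% of all genes. SMAD5, a BMP-activated SMAD, fell from 10.95, 10.90 and 10.96 to 9.76, 9.82 and 9.82 (log2 difference -1.13, SE 0.08, adjusted p = 1.29e-07), and all of its 5 probe sets were lower. ID3, a target of that pathway, fell from 6.24, 6.33 and 6.59 to 5.04, 5.69 and 5.30 (log2 difference -1.05, SE 0.15, adjusted p = 9.91e-05). BCL6, a transcriptional repressor, fell from 10.16, 10.14 and 10.27 to 9.09, 8.90 and 8.90 (log2 difference -1.23, SE 0.13, adjusted p = 7.57e-06), and FOXN3, a forkhead repressor, by 1.14 (-0.60 as the mean of its 8 probe sets). Forkhead factors had 1 higher and 7 lower of 39, and Kruppel-like and SP factors 3 higher and 8 lower of 25.

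The ZNF-numbered zinc finger genes, many of them KRAB-type repressors, were a large group with more rises than falls, 113 higher (24.2%) and 55 lower (11.8%) of 466; their median of 0.06 turns negative under poly-A and hybridization scaling. Among the 314 with a mean of 5 or more, 102 were higher and 52 lower. ZNF114 rose from 6.10, 6.51 and 6.32 to 8.04, 8.16 and 7.94 (log2 difference 1.74, SE 0.12, adjusted p = 1.24e-07), with both probe sets higher. ZNF473, a factor in histone mRNA processing, rose from 6.92, 7.04 and 6.48 to 8.69, 8.43 and 8.41 (log2 difference 1.70, SE 0.14, adjusted p = 5.65e-07, and 1.000 as the mean of its 2 probe sets). The histone genes themselves had 6 higher and 14 lower of 54. H2AC6 fell from 8.73, 8.83 and 8.58 to 6.04, 6.36 and 6.62 (log2 difference -2.37, SE 0.14, adjusted p = 3.15e-08, 5.18-fold lower), the linker histone H1-2 from 8.41, 8.31 and 8.30 to 6.75, 6.47 and 6.58 (log2 difference -1.74, SE 0.16, adjusted p = 1.97e-06), and H2BC21 from 8.01, 7.82 and 8.09 to 6.57, 6.18 and 6.38 (log2 difference -1.60, SE 0.17, adjusted p = 5.06e-06). Members of a histone cluster are near copies, so a probe set can read more than 1 of them. E2F and cell cycle factors had 9 higher and 4 lower of 22, and chromatin enzymes 32 higher and 24 lower of 125, counts that hold for the authors' normalization and not under poly-A scaling.

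**Figure D3:**
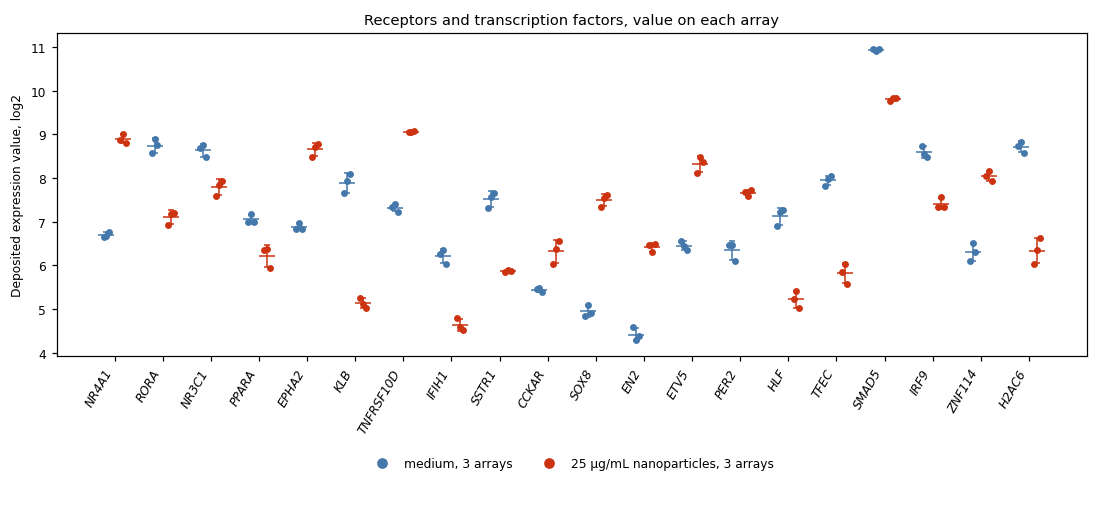
Deposited log2 value of 20 receptor, transcription factor and histone genes on each of the 3 medium arrays (blue) and the 3 arrays at 25 µg/mL (red), with the mean and SD of 3 arrays. SOX8 and EN2 leave the dim range, rising by 2.54 and 2.00, and KLB and H2AC6 fall by 2.75 and 2.37.

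In glucose metabolism, GBE1, PFKP and PFKFB3 rose and GALM, GALT and GALK1 fell. GBE1, the glycogen branching enzyme, rose from 5.53, 5.49 and 5.48 to 7.18, 7.78 and 7.51 (log2 difference 1.99, SE 0.15, adjusted p = 2.1e-07, 3.97-fold). PFKP, a phosphofructokinase of glycolysis, rose from 10.31, 10.36 and 10.29 to 11.51, 11.66 and 11.49 (log2 difference 1.23, SE 0.09, adjusted p = 1.08e-07, and 0.68 as the mean of its 2 probe sets), and PFKFB3, which makes its activator, by 1.36. GALM, which converts the anomers of galactose, fell from 9.69, 9.85 and 9.91 to 8.12, 8.31 and 8.13 (log2 difference -1.63, SE 0.12, adjusted p = 2.34e-07). GALT, the uridylyltransferase of the galactose pathway, fell from 8.73, 8.91 and 9.03 to 7.63, 7.82 and 7.72 (log2 difference -1.17, SE 0.10, adjusted p = 8.87e-07), and all of its 3 probe sets were lower. Between them, GALK1, galactokinase, fell by 0.92, with its 2 probe sets of opposite sign (-0.40 as the mean of its 2 probe sets). The list of 53 glycolysis and gluconeogenesis genes had 11 higher and 14 lower.

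Genes of mitochondrial pyruvate oxidation fell at several steps, with 20 of 35 pyruvate and citric acid cycle genes lower (57.1%) and 5 higher. MPC2, a chain of the mitochondrial pyruvate carrier, fell from 11.20, 11.38 and 11.43 to 9.98, 9.98 and 10.06 (log2 difference -1.33, SE 0.10, adjusted p = 3.42e-07), and both probe sets were lower. IDH2, the NADP-dependent isocitrate dehydrogenase of mitochondria, fell from 8.66, 8.83 and 9.25 to 7.51, 7.91 and 7.43 (log2 difference -1.30, SE 0.15, adjusted p = 1.4e-05). OGDH, of the oxoglutarate dehydrogenase complex, fell by 1.06, with 1 of 3 probe sets on the other side (-0.60 as the mean of its 3 probe sets). Another subunit of that complex, among the 5 risers of the list, was called higher by 0.30 (adjusted p = 0.0163). The median of the list was -0.24.

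Breakdown of branched-chain amino acids, lysine and propionate was lower in 18 of 30 genes (60%) and higher in 2, with a median of -0.38. MCEE, methylmalonyl-CoA epimerase, fell from 8.002, 8.13 and 8.19 to 6.72, 6.57 and 6.52 (log2 difference -1.50, SE 0.10, adjusted p = 8.19e-08). AUH, which acts in leucine breakdown, fell from 8.24, 8.42 and 8.47 to 7.28, 7.11 and 7.17 (log2 difference -1.19, SE 0.10, adjusted p = 5.65e-07). HIBADH, of the valine pathway, fell by 1.05, with 1 of its 3 probe sets on the other side (-0.72 as the mean of its 3 probe sets). AASS, the first enzyme of lysine breakdown, was the largest rise of the list (log2 difference 0.66, SE 0.14, adjusted p = 0.00208), a call lost under poly-A and hybridization scaling.

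In urea cycle, arginine, proline and glutamine metabolism none of 37 genes rose and 17 fell (45.9%). OAT, ornithine aminotransferase, among the brightest genes on the arrays, fell from 13.06, 13.10 and 13.16 to 11.74, 11.66 and 11.61 (log2 difference -1.44, SE 0.10, adjusted p = 7.59e-08). ASS1, argininosuccinate synthase, fell from 10.94, 10.97 and 10.95 to 9.44, 9.62 and 9.48 (log2 difference -1.44, SE 0.10, adjusted p = 7.18e-08). The medium arrays of ASS1 lay almost at the same value, and the rule that picked it required groups that do not overlap. ASPA, which splits N-acetylaspartate, fell from 6.61, 7.01 and 6.48 to 4.21, 4.04 and 4.30 (log2 difference -2.52, SE 0.12, adjusted p = 4.35e-09, and -1.47 as the mean of its 2 probe sets). HNMT, histamine methyltransferase, fell from 9.91, 9.88 and 9.75 to 8.46, 8.22 and 8.38 (log2 difference -1.49, SE 0.09, adjusted p = 2.19e-08), and all of its 6 probe sets were lower. Serine, glycine, methionine, cysteine and folate enzymes had 6 higher and 17 lower of 47, and aromatic amino acid breakdown 5 higher and 8 lower of 35. MAT2A, which makes S-adenosylmethionine, was a riser (log2 difference 0.81, SE 0.09, adjusted p = 6.13e-06), a call lost under poly-A scaling.

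Polyamine synthesis was the metabolic list with the highest share of rises, 7 higher (46.7%) and 3 lower of 15; its median of 0.21 turns negative under poly-A and hybridization scaling. ODC1, ornithine decarboxylase, the entry enzyme, rose from 11.69, 11.67 and 11.52 to 12.67, 12.65 and 12.69 (log2 difference 1.04, SE 0.09, adjusted p = 8.99e-07), and AZIN1, which protects it from its antizyme, by 0.67. SRM, spermidine synthase, rose by 0.68. These 3 calls were lost under poly-A scaling, and those of AZIN1 and SRM also under hybridization scaling. SAT2, of the spermidine acetyltransferase family, fell by 0.76. The ornithine enzymes OAT and ODC1 thus moved in opposite directions in the deposited values.

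Nucleotide enzymes were mixed, 14 higher and 16 lower of 61 (23.0% and 26.2%, against 14.1% and 19.3% of all genes). UPP1, uridine phosphorylase, rose from 6.73, 6.50 and 6.30 to 8.09, 7.98 and 7.84 (log2 difference 1.46, SE 0.15, adjusted p = 4e-06), and CTPS1, which makes CTP, from 6.75, 6.96 and 6.76 to 7.85, 7.84 and 7.83 (log2 difference 1.02, SE 0.10, adjusted p = 2.08e-06), the latter call lost under poly-A scaling. ENTPD1, the ectoenzyme CD39 that removes phosphate from extracellular ATP, fell from 6.70, 6.96 and 6.64 to 5.53, 5.69 and 5.19 (log2 difference -1.30, SE 0.14, adjusted p = 6.17e-06, and -0.80 as the mean of its 4 probe sets), and ENPP1, another ectonucleotidase, by 1.51 (-0.84 as the mean of its 4 probe sets). Among NAD and coenzyme genes 7 rose and 20 fell of 47. COQ4, needed for ubiquinone synthesis, fell by 1.19 (-0.70 as the mean of its 2 probe sets), and NMNAT3, a mitochondrial NAD synthase, fell from 7.27, 7.54 and 7.47 to 6.21, 6.31 and 6.19 (log2 difference -1.19, SE 0.13, adjusted p = 5.54e-06).

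Lipid genes fell more often than they rose, both in the list that holds beta-oxidation and in that of synthesis. Of 70 acyl-CoA, beta-oxidation and ketone genes 37 fell (52.9%) and 3 rose, with a median of -0.34. ACSM3, a medium-chain acyl-CoA synthetase, fell from 6.41, 6.46 and 6.49 to 4.88, 4.79 and 4.85 (log2 difference -1.61, SE 0.22, adjusted p = 4.26e-05, and -1.07 as the mean of its 2 probe sets), and ACSS2, the acetyl-CoA synthetase of cytosol and nucleus, from 8.32, 8.25 and 8.54 to 7.16, 7.42 and 7.22 (log2 difference -1.10, SE 0.13, adjusted p = 1.69e-05). Of 69 fatty acid, triglyceride and cholesterol synthesis genes 31 fell (44.9%) and 4 rose. DGAT2, which makes triglyceride from diglyceride, fell from 9.64, 9.71 and 9.82 to 8.20, 8.16 and 8.19 (log2 difference -1.54, SE 0.09, adjusted p = 2.03e-08), and DGAT1 by 1.41. GPAT3, an acyltransferase at the first step of the same route, rose from 7.63, 7.46 and 7.53 to 9.16, 9.11 and 8.82 (log2 difference 1.49, SE 0.09, adjusted p = 4.67e-08). FABP1, the liver-type fatty acid binding protein, fell from 8.02, 7.91 and 8.25 to 6.44, 6.45 and 6.51 (log2 difference -1.59, SE 0.26, adjusted p = 0.000272, and -0.95 as the mean of its 2 probe sets).

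Sphingolipid and ceramide genes had 25 of 53 lower (47.2%) and 5 higher. UGT8, which makes galactosylceramide, fell from 8.16, 8.09 and 7.84 to 6.63, 6.46 and 6.54 (log2 difference -1.49, SE 0.19, adjusted p = 2.39e-05), and GAL3ST1, which sulfates that product, from 7.27, 7.28 and 7.51 to 6.23, 5.91 and 6.09 (log2 difference -1.28, SE 0.12, adjusted p = 1.74e-06). GLA, the lysosomal alpha-galactosidase, rose from 8.83, 8.84 and 8.85 to 10.16, 10.13 and 10.07 (log2 difference 1.28, SE 0.10, adjusted p = 3.55e-07). Phospholipid and inositol genes had 11 higher and 35 lower of 122. Of the phosphatidylcholine route, 2 enzymes were higher, CHKA, choline kinase, by 0.89 and PCYT1A, the enzyme that makes CDP-choline, by 0.67, both calls lost with poly-A scaling and that of PCYT1A also with hybridization scaling. PLA2G12B, a phospholipase A2 relative, fell from 7.66, 7.79 and 8.16 to 6.29, 6.15 and 6.58 (log2 difference -1.53, SE 0.19, adjusted p = 2.41e-05).

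In drug and steroid metabolism, the conjugating transferases and the mixed list of alcohol, aldehyde and aldo-keto enzymes and carboxylesterases fell more often than they rose. The P450 gene CYP1A1 rose. CYP1A1, the P450 induced through the dioxin receptor, lay at 9.60, 9.48 and 9.18 in medium and at 11.17, 10.99 and 11.001 with nanoparticles (log2 difference 1.64, SE 0.19, adjusted p = 1.25e-05, 3.11-fold). AHR, the dioxin receptor, did not pass the test (log2 difference 0.19, SE 0.16, adjusted p = 0.418). Of 47 P450 genes 5 rose and 4 fell, and the largest fall was that of CYP4F3, a hydroxylase of leukotriene B4, from 5.68, 5.94 and 6.34 to 3.998, 4.10 and 4.01 (log2 difference -1.95, SE 0.15, adjusted p = 2.5e-07). Of 43 glucuronosyl-, sulfo-, glutathione and N-acetyltransferases 18 fell (41.9%) and 2 rose. UGT2A3, a glucuronosyltransferase of gut and liver, fell from 7.72, 7.89 and 7.70 to 5.30, 5.50 and 5.67 (log2 difference -2.28, SE 0.15, adjusted p = 6.09e-08, 4.86-fold lower). SULT1C2, a sulfotransferase, fell from 8.31, 8.46 and 8.50 to 7.11, 7.11 and 6.80 (log2 difference -1.42, SE 0.14, adjusted p = 3.44e-06).

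Alcohol, aldehyde and aldo-keto enzymes and carboxylesterases had 10 higher and 28 lower of 68. ADH6, an alcohol dehydrogenase, fell from 6.83, 7.27 and 7.46 to 4.73, 4.96 and 4.88 (log2 difference -2.33, SE 0.13, adjusted p = 1.98e-08), and both probe sets were lower. EPHX2, the soluble epoxide hydrolase, fell from 6.91, 7.06 and 7.50 to 5.06, 4.96 and 5.14 (log2 difference -2.11, SE 0.19, adjusted p = 1.25e-06, 4.3-fold lower). ALDH1A1, which makes retinoic acid, fell from 10.65, 10.58 and 10.52 to 9.13, 9.14 and 9.05 (log2 difference -1.47, SE 0.09, adjusted p = 3.35e-08). AKR1B10, an aldo-keto reductase of the NRF2 program, rose from 5.62, 5.21 and 4.97 to 8.16, 7.76 and 7.63 (log2 difference 2.58, SE 0.16, adjusted p = 3.73e-08, 5.99-fold). RBP2, the retinol binding protein of enterocytes, fell from 8.43, 8.67 and 8.68 to 6.56, 6.80 and 6.48 (log2 difference -1.98, SE 0.19, adjusted p = 2.32e-06), and HSD3B1, a steroid dehydrogenase, by 1.93 (-1.03 as the mean of its 2 probe sets). Steroid, retinoid and bile acid enzymes had 7 higher and 22 lower of 77.

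Glycan enzymes had 11 higher and 39 lower of 156 (7.1% and 25.0%, against 14.1% and 19.3% of all genes). GALNT1, which starts mucin-type O-glycans, fell from 10.64, 10.93 and 11.03 to 9.01, 9.18 and 9.31 (log2 difference -1.70, SE 0.16, adjusted p = 1.5e-06). CHST9, which sulfates N-acetylgalactosamine, fell from 7.89, 8.29 and 8.20 to 6.24, 6.38 and 6.40 (log2 difference -1.79, SE 0.13, adjusted p = 2.31e-07), with both probe sets lower by the same amount. Of 54 genes in the cyclic nucleotide enzyme list, which also counts the peptide GUCA2A, 4 rose and 12 fell. Of 14 carbonic anhydrases 2 fell and none rose.

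**Figure D4:**
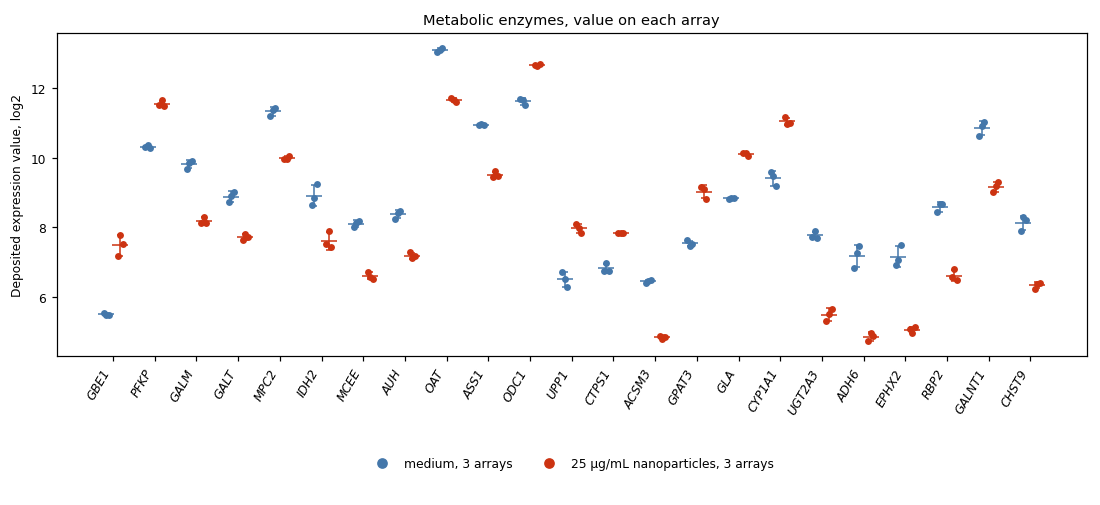
Deposited log2 value of 23 metabolic enzyme genes on each of the 3 medium arrays (blue) and the 3 arrays at 25 µg/mL (red), with the mean and SD of 3 arrays. Genes picked by the rule had to have groups that do not overlap, as 19.8% (above) and 25.9% (below) of all genes do; GBE1, PFKP, ODC1, UPP1, CTPS1, GPAT3, GLA and CYP1A1 are higher at 25 µg/mL and the other 15 lower, as deposited.

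Against medium, limma called no gene at 2.5 µg/mL or with 0.5 µg/mL of silver ions, where 900 and 1233 genes had an unadjusted p under 0.05. Among the 137 genes of the 4 classes that the naming rule picked and that changed at least 2-fold at 25 µg/mL, 40 upward and 97 downward, the median size of the difference was 1.47 at 25 µg/mL, 0.11 at 2.5 µg/mL and 0.13 with ions, all against the same medium arrays. All 137 differed between 25 and 2.5 µg/mL and between 25 µg/mL and ions, against 34.0% and 32.2% of all genes in those contrasts; since the genes were picked for their difference from medium at 25 µg/mL, with the same nanoparticle arrays, these counts are a description. At 2.5 µg/mL 2 of them, AKR1B10 and SLC1A4, lay more than 0.5 from medium, at -0.58 and 0.54, and with ions 1 did, NRP2 at -0.59. None of these passed the test against medium. The silver doses of particles and ions differ, so no comparison of the 2 forms follows from these values.

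**Figure D5:**
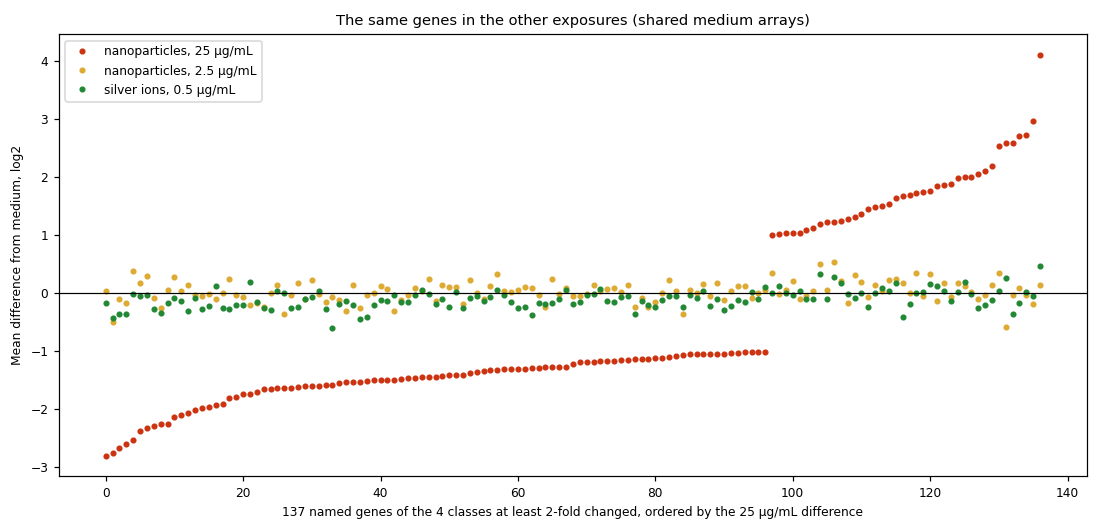
Mean log2 difference from the same 3 medium arrays for 137 genes, ordered by their difference at 25 µg/mL (red), with the values at 2.5 µg/mL (yellow) and with 0.5 µg/mL silver ions (green). The red points span the full range by selection, and the others lie between -0.59 and 0.54.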

How the data were processed

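Per the labels' protocols, 250 ng of total RNA per sample was put on 1 array of the 3' expression type, 12 arrays in all. The authors deposited log2 expression values per probe set; per the submitters' processing notes RMA and Partek were used, with version and settings not given in the sources used here. The deposited log2 values had a mean of 5.57 on every array, so a change in total mRNA would not show, and no detection calls were used.

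Of 54675 probe sets, 62 were controls, 41091 carried 1 gene symbol in the platform annotation, 1801 carried several and 11721 carried none. Symbols were made current through the gene ID, except 54. Of 19775 genes 10523 had more than 1 probe set, and the one with the highest mean was read. No 2 arrays were identical.

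One linear model of 4 groups of 3 arrays was fitted with limma 3.58.1 in R 4.3.3 (two-sided moderated tests with 8 residual degrees of freedom, Benjamini-Hochberg adjustment over all genes, threshold 0.05) and tested on simulated data. SE is limma's, with a median of 0.107. The comparison, its gene lists and the naming rule were chosen with earlier results of these data known. The rule took the 3 largest rises and 3 largest falls of each list among called genes whose nanoparticle arrays did not overlap the medium arrays, the 10 largest each way over all genes, and 50 genes by name, 42 of them measured. ALPI, ANPEP, CDH17, SI and SLC3A2 were chosen after their values were seen. Promoters, 250 bases before the start, are RefSeq's and were matched by symbol and searched on both strands.

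Alternatives were a fit of the 6 arrays only, an intensity trend, array weights, median centring, quantile normalization, scaling on poly-A or hybridization controls, a filter at a mean of 5, averaging a gene's probe sets, an adjusted p under 0.01, limma's treat at 1.2-fold, and leaving out each array (for control probe sets, chosen after seeing the data).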

Additional observations from a re-analysis of the deposited data

Results flagged for a closer look

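Several signals lay outside the gene measurements. At 25 µg/mL the mean of the 24 poly-A controls exceeded that in medium by 0.61, that of the 18 hybridization controls by 0.43 and that of the 6 ribosomal RNA controls by 0.64 (exact permutation test, two-sided p = 0.1 for each, the smallest that 3 arrays against 3 can give). The hybridization means were 10.57, 10.43 and 10.66 in medium and 10.97, 10.89 and 11.08 with nanoparticles, and the ribosomal RNA means 9.97, 10.03 and 9.76 against 10.56, 10.50 and 10.64. Leaving out 1 array at a time gave 0.47 to 0.84 for the poly-A, 0.37 to 0.48 for the hybridization and 0.56 to 0.70 for the ribosomal RNA controls.

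Probe sets that name no single gene also changed at 25 µg/mL. Of 11721 probe sets with no listed gene 1269 were called higher and 584 lower, 175 and 79 of them at least 2-fold, so 15.8% were called. Of 1801 probe sets with several genes 241 were called higher and 269 lower (28.3%).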

How the results depend on the processing

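Against 2796 genes higher and 3811 lower, median centring gave 4202 and 2788, poly-A control scaling 179 and 14081, hybridization control scaling 508 and 12835, and limma's treat at 1.2-fold 1002 and 1663. Leaving out 1 array gave 2279 to 2497 higher and 3188 to 3487 lower; an adjusted p under 0.01 gave 1924 and 2780. The other alternatives stayed within 1.5 times of both counts. Of the 365 genes named by the rule, 329 differed from 2.5 µg/mL and 330 from silver ions, 315 to 330 and 316 to 330 when 1 array was left out. Under poly-A scaling MTF1 turned to -0.23, SLC2A1 to -0.09, CDH17 to -0.56 and SLC3A2 to -0.57, and under hybridization scaling MTF1 to -0.04, CDH17 to -0.38 and SLC3A2 to -0.39; the last 2 genes were not called as deposited. Of 47 genes called higher and named in the text, 18 lost the call or turned under poly-A scaling and 12 under hybridization scaling, each named beside its value. Treat at 1.2-fold ended the calls of AASS, CDX2, MTF1, SLC2A1, VDR and VIL1. When all probe sets of a gene were averaged, 42 of 152 called genes of the text were smaller by over 1.5 times and 1, CDX2, lost its call; the cause was not tested. Control probe sets kept their direction without any 1 array. Signal over background is not given with the values, which limits what can be said of dim genes. No paired analysis was possible because the titles carry a different letter on every array; replicates 1 to 3 were numbered here in accession order, which ties no array to one of another group.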
